A study of Caenorhabditis elegans with 21 samples.

Results

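The windows described here are 638 stretches of 500 bp that were silent in wild type and in the nrde-3 mutant and transcribed in both double mutants labelled with set-25. They were chosen by 5 conditions on the mean of the 3 libraries of a genotype, in CPM, the read count scaled by the library total. The mean had to be below 0.2 CPM in N2, below 0.5 CPM in nrde-3, at least 1 CPM in set-25 nrde-3 and at least 1 CPM in set-25 lin-61. In addition, set-25 lin-61 had to be less than 3 times set-25 nrde-3. Of 200547 windows, 121674 met the first pair of conditions and are called silent below. The 638 selected windows made up 0.318% of all windows and 0.524% of the silent ones. Since measured values of N2, nrde-3, set-25 nrde-3 and set-25 lin-61 chose the windows, their levels in those 4 genotypes are a description, with no test.

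The libraries hold total RNA, depleted of ribosomal RNA, from C. elegans embryos of about 1 to 300 cells grown at 20 °C. There were 3 libraries, lettered a, b and c, for each of 7 genotypes. N2 (Bristol) is the wild type. The single mutants were nrde-3(tm1116) on X and lin-61(tm2649) on I, and each was also combined with met-2(n4256) or set-25(n5021), both on III, which gave the double mutants met-2 nrde-3, set-25 nrde-3, met-2 lin-61 and set-25 lin-61. The title asks whether NRDE-3 and LIN-61 stand for parallel routes to the enzyme of H3K9 trimethylation. The met-2 and set-25 single mutants were not analysed here, so a level in a double mutant can be set against nrde-3 or lin-61 alone but not against met-2 or set-25 alone. The labels speak of 2 independent biological replicates while the titles number 3, so the spread between libraries need not be that between independent cultures. In whole embryos, fewer cells of a type and less RNA per cell cannot be told apart.

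As background, methylation of H3K9 marks silent chromatin on repeats, on transposons and on genes that are off in a tissue. In C. elegans, MET-2 (a homologue of SETDB1) places the mono- and dimethyl marks, and SET-25 places the trimethyl mark. NRDE-3 is a nuclear Argonaute protein of somatic cells that carries small interfering RNAs to matching nascent transcripts. LIN-61 is a protein with MBT domains, which bind methylated histone tails. The deposited counts name neither genes nor repeats, and the annotation at hand belongs to a build other than ce10, so windows are named by chromosome and first base, and no gene is assigned to them.

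N2 libraries held 54839178 to 67553226 reads and lin-61 libraries 59462797 to 66437115, and both share the title prefix 875. The totals ran from 22275571 to 28834312 in the other 5 genotypes, all of prefix 1121. Prefix and genotype cannot be told apart between those sets. At these depths, 1 CPM stood for 22.3 to 28.8 reads in a library of prefix 1121, and an empty window allows up to 3 reads, or 0.0444 to 0.135 CPM, where limits and intervals cover counting error only.

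As a check of the labels, windows were sought that were lost in every library of some genotypes. The split that the lin-61 label implies, low in lin-61, met-2 lin-61 and set-25 lin-61, held 0 windows, and so did the splits implied by nrde-3, met-2 and set-25. A window here needed 5 CPM or more in each library of the high genotypes and at most 0.25 of their lowest value in the low ones. The window I 7249001 was at 32.1 ± 0.213 CPM in N2 (SD, n = 3), 2.79 ± 0.439 CPM in lin-61 and 5.75 CPM in set-25 lin-61, but at 50.3 ± 5.59 CPM in the libraries labelled met-2 lin-61. At X 372001, N2 held 62.3 ± 7.28 CPM, against 3.10 CPM in nrde-3, 2.18 CPM in met-2 nrde-3 and 4.14 CPM in set-25 nrde-3. The libraries labelled met-2 lin-61 were at 3.06 ± 0.569 CPM there, with the nrde-3 genotypes. These windows were picked after their values were seen. They go against the label met-2 lin-61, which is given below only as a label. At III 13288501, all 4 double mutants held 0 reads, against 10.3 ± 0.864 CPM in N2. The lin-61 single mutant kept 7.33 CPM at this window, and the nrde-3 single mutant kept 7.75 CPM. The split with all 4 double mutants low held 3 windows, all on III, the chromosome of met-2 and set-25. The labels give the 4 double mutants no mutation in common, so they do not imply such a shared loss. Its cause was not tested. No window was lost only in the met-2 doubles or only in the set-25 doubles. The check thus gave no support to the met-2 and set-25 parts of all 4 labels, which are used below only as labels.

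Over the selected windows, the median levels of the genotypes that the selection did not use lay between those it kept low and those it kept high. The median CPM was 0.0959 in N2 and 0.313 in nrde-3, the genotypes the selection kept low. It was 1.31 CPM in set-25 nrde-3 and 2.50 CPM in set-25 lin-61, the genotypes it kept high. Between them lay the genotypes that the selection did not use, with medians of 0.662 CPM in lin-61, 0.725 CPM in met-2 nrde-3 and 0.940 CPM in the libraries labelled met-2 lin-61. Over the 121036 other silent windows, these medians were 0.0219 CPM in lin-61, 0.247 CPM in met-2 nrde-3 and 0.0661 CPM in the libraries labelled met-2 lin-61. There N2 was at 0.0182 CPM and nrde-3 at 0.0272 CPM, also below the selected windows. The 264 silent windows that failed by the ratio alone were close to the selected ones. Their medians were 0.509 CPM in lin-61, 0.653 CPM in met-2 nrde-3 and 0.956 CPM in the libraries labelled met-2 lin-61. Over the selected windows, the order of lin-61 and met-2 nrde-3 turned with the scaling. With TMM-normalised CPM, a scaling chosen after seeing the data, the medians were 0.802 CPM in lin-61, 0.655 CPM in met-2 nrde-3 and 0.889 CPM in the libraries labelled met-2 lin-61, against 1.20 CPM in set-25 nrde-3 and 2.07 CPM in set-25 lin-61.

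Some of the selected windows also passed 1 CPM where nothing in the selection required it. The level reached 1 CPM in 132 windows in lin-61 (20.7%), in 118 in met-2 nrde-3 (18.5%) and in 272 in the libraries labelled met-2 lin-61 (42.6%). Among the other silent windows, 0.0884%, 0.872% and 0.206% reached it. Among the 264 silent windows that failed by the ratio alone, the shares were 16.3%, 14.4% and 46.2%. Such levels were thus not particular to the selected windows. The highest of the 7 genotype means was set-25 lin-61 in 571 windows, set-25 nrde-3 in 28, met-2 nrde-3 in 27, lin-61 in 9 and met-2 lin-61 in 3. N2 was the lowest in 603 windows. Both set-25 doubles were the highest of the 7 genotypes in 552 windows. Both met-2 doubles lay above lin-61 and below both set-25 doubles in 281 of the 638, so the order of the medians did not hold in most single windows.

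**Figure D1:**
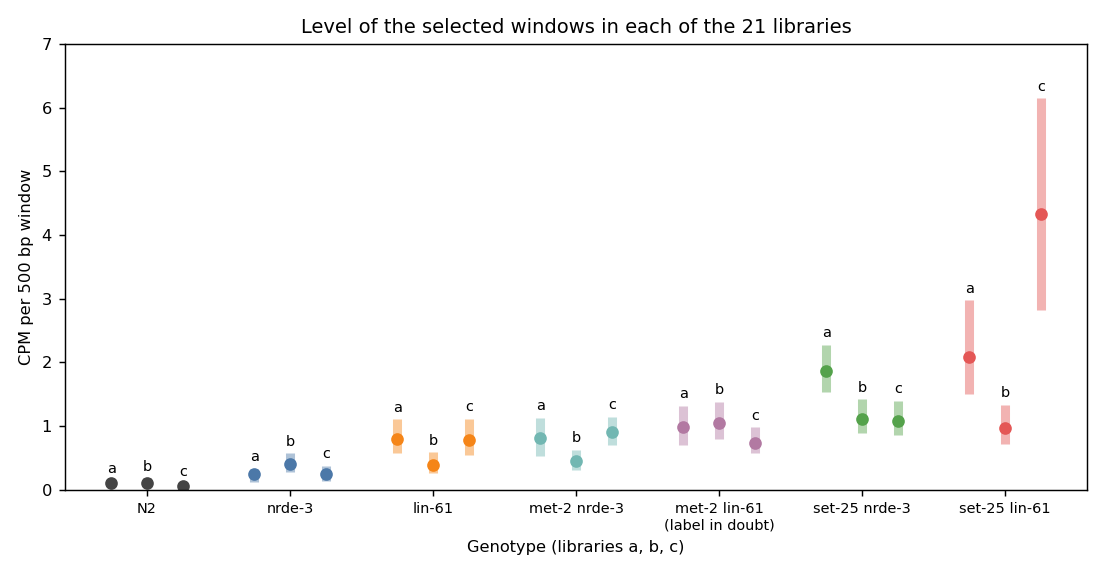
Level of the 638 selected windows in each of the 21 libraries, in CPM per 500 bp window. Points are medians over the windows and bars run from the lower to the upper quartile. The libraries of set-25 lin-61 are spread from 0.962 to 4.34 CPM, wider than those of any other genotype.

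The libraries of a genotype did not stand close together. In set-25 lin-61, the median over the selected windows was 2.09 CPM in library a, 0.962 CPM in b and 4.34 CPM in c. Library c was the highest of the 3 in 590 of 638 windows and library b the lowest in 606, and library b lay within the range of the libraries labelled met-2 lin-61. In set-25 nrde-3, the medians were 1.86, 1.11 and 1.08 CPM, and library a was the highest in 560 windows. In lin-61 they were 0.799, 0.391 and 0.774 CPM, with library b the lowest in 593 windows. The other genotypes were at 0.104, 0.106 and 0.0547 CPM in N2, at 0.246, 0.406 and 0.246 CPM in nrde-3, at 0.807, 0.451 and 0.905 CPM in met-2 nrde-3 and at 0.989, 1.05 and 0.726 CPM in the libraries labelled met-2 lin-61.

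Library c of set-25 lin-61 was also the highest of its genotype over the other silent windows, which summed to 17910 CPM in a, 12634 CPM in b and 32249 CPM in c. A background in windows quiet in N2 and lin-61 set met-2 nrde-3 apart. In 32328 quiet windows holding no more than 2 reads over the N2 and lin-61 libraries together, the mean level was 0.166, 0.0955 and 0.361 CPM in libraries a, b and c of met-2 nrde-3. It was 0.00695 to 0.0523 CPM in the libraries labelled met-2 lin-61 and at most 0.0304 CPM in every other library. The choice of quiet windows fixed the low values of N2 and lin-61. The part of library and background in the levels of the selected windows was not tested.

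The number of selected windows depended on single libraries. Without library a of set-25 nrde-3, 340 windows met the conditions, and without library c of that genotype, 859 did. Only 135 of the 638 remained selected when each of the 12 libraries of the 4 genotypes was left out in turn. When every library of both set-25 doubles had to reach 1 CPM, 171 were left.

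The extent to which libraries separated the genotypes is given here for the contrasts the selection used, as a description. All 3 libraries of set-25 nrde-3 lay above all 3 of nrde-3 in 598 of 638 windows, against 9.89% of all windows. Nothing is read from this count, since the selection fixed its direction. For set-25 lin-61 against nrde-3 the count was 562, where 16% of all windows did the same. For set-25 lin-61 against N2 it was 623, where 34% of all windows did the same, and for set-25 nrde-3 against N2 it was 631, against 28.4%. The ratio of set-25 lin-61 to set-25 nrde-3 was bounded at 3 by the selection, and its median was 1.85 with quartiles of 1.39 and 2.30. All 3 set-25 lin-61 libraries lay above all 3 of set-25 nrde-3 in 19 of 638 windows, against 9.18% of all windows, so that in most windows these genotypes overlapped.

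The single mutants also differed from N2 in the selected windows, with counts that the low ceilings on N2 and nrde-3 and the floor of 1 CPM on the set-25 doubles help to set. Nothing is read from them. In lin-61, all 3 libraries lay above all 3 of N2 in 586 windows, where 15.3% of all windows did so, and the median ratio of means was 7.02. In nrde-3, 370 windows were above N2 in this way, against 20% of all windows, with a median ratio of 3.15. All 3 libraries of set-25 lin-61 lay above all 3 of lin-61 in 379 windows, against 29.8%, and all 3 of met-2 nrde-3 above all 3 of nrde-3 in 270, against 31.9%.

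The windows fell into 3 patterns in the genotypes that the selection did not use. The patterns were drawn after the values were seen. In 25 windows, met-2 nrde-3 was at or above 10 CPM. In 5 others, lin-61 was at or above 5 CPM. The other 608 windows are what remained after both thresholds, and they are called graded below. Of them, 603 had a Pearson correlation above 0.8 with the median profile over the 21 libraries, on log2(CPM + 0.1), and the lowest of the others was at 0.697. The libraries share this profile by the way the windows were chosen, and the correlation is a description.

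**Figure D2:**
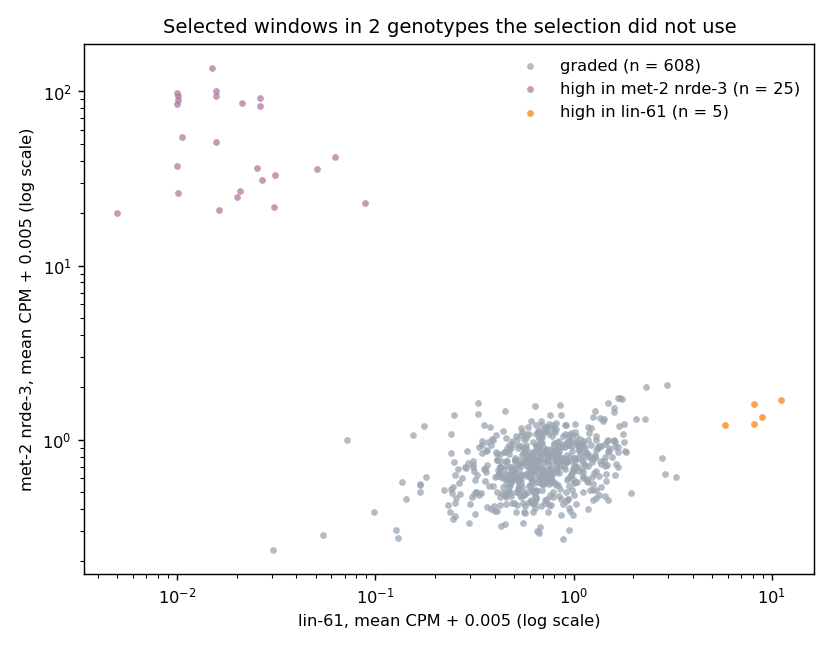
Mean level of each of the 638 selected windows in lin-61 (horizontal, CPM + 0.005, log scale) and met-2 nrde-3 (vertical, CPM + 0.005, log scale), n = 3 libraries per genotype. The 25 windows high in met-2 nrde-3 lie between 20.1 and 136 CPM on the vertical axis, and the 5 windows high in lin-61 lie between 5.82 and 11.1 CPM on the horizontal axis, both apart from the 608 graded windows.

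Over the 608 graded windows, the quartiles were 0.499 and 0.930 CPM in lin-61, 0.563 and 0.892 CPM in met-2 nrde-3, and 0.742 and 1.16 CPM in the libraries labelled met-2 lin-61. In the set-25 doubles they were 1.15 and 1.62 CPM with nrde-3 and 1.77 and 3.38 CPM with lin-61. Most graded windows thus stood close to the threshold of 1 CPM in set-25 nrde-3, on a median of 94 reads over its 3 libraries, and a median of 17.5 reads in N2 and 24 in nrde-3. The lowest lin-61 level among them was 0.0253 CPM and the highest 3.30 CPM.

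Of the graded windows, II 8446001 had the highest levels in both set-25 doubles. It held 42.3, 12.7 and 90.2 CPM in set-25 lin-61 and 23.3, 11.2 and 15.04 CPM in set-25 nrde-3. The libraries labelled met-2 lin-61 held 13.97, 6.37 and 7.04 CPM, lin-61 held 3.87, 1.10 and 3.86 CPM, and met-2 nrde-3 held 1.90, 1.84 and 2.47 CPM. N2 was at 0.118, 0.0703 and 0.0365 CPM and nrde-3 at 0.246, 0.730 and 0.288 CPM. Every library of the set-25 doubles was above every library of N2, nrde-3, lin-61 and met-2 nrde-3, while the libraries labelled met-2 lin-61 overlapped both doubles. This window was 2.20 ± 0.50 lower in met-2 nrde-3 than in the libraries labelled met-2 lin-61 on the log2 scale (SE, edgeR quasi-likelihood test, adjusted p = 0.0261). With library a of met-2 lin-61 left out, the adjusted p was 0.130, and with library a of met-2 nrde-3 left out it was 0.0597.

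I 4149001 was the next highest. It held 11.5, 4.02 and 50.6 CPM in set-25 lin-61 and 11.9, 6.13 and 7.81 CPM in set-25 nrde-3. In lin-61 it was low, at 0.471, 0.120 and 0.380 CPM, and in the libraries labelled met-2 lin-61 it was at 5.56, 4.74 and 3.34 CPM, without overlap. The difference was 3.45 ± 0.61 on the log2 scale (edgeR, adjusted p = 3.60e-04). In met-2 nrde-3 it held 0.928, 1.39 and 2.55 CPM, above lin-61 by 1.91 ± 0.63 (edgeR, adjusted p = 0.0238). Both contrasts with lin-61 cross the title prefix, and the first also carries the doubt on the label met-2 lin-61.

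The other 8 windows of the 10 highest in both doubles were, in order, II 113501, III 3336501, and 6 with lower levels down to V 11345501. II 113501 reached 15.6 ± 13.2 CPM in set-25 lin-61 and 5.26 ± 2.04 CPM in set-25 nrde-3. I 840001 was at 10.1 ± 6.71 and 4.32 ± 1.65 CPM, X 6791001 at 10.5 ± 8.58 and 3.49 ± 1.56 CPM, and V 12378501 at 9.27 ± 6.93 and 3.80 ± 1.73 CPM (SD, n = 3). The libraries of II 113501 were at 13.4, 3.56 and 29.8 CPM in set-25 lin-61 and at 7.61, 3.91 and 4.26 CPM in set-25 nrde-3, and library b of the former was below all 3 of the latter. It was 1.97 ± 0.56 higher on the log2 scale in the libraries labelled met-2 lin-61 than in lin-61 (edgeR, adjusted p = 0.0189). That contrast crosses the title prefix and carries the doubt on the label. III 12235001 was at 8.68 ± 6.09 and 4.80 ± 1.34 CPM, IV 4302501 at 8.47 ± 7.03 and 3.22 ± 1.66 CPM, and V 11345501 at 7.71 ± 5.40 and 3.44 ± 0.900 CPM. The SD in set-25 lin-61 was more than 0.5 of the mean in each of these 7 windows, and library c was the highest. III 3336501 belongs to the windows high in met-2 nrde-3 described below and rested on library a of set-25 lin-61, with 25.1, 0.460 and 0.326 CPM there. It held 9.30, 0.728 and 11.6 CPM in set-25 nrde-3 and 70.9, 191 and 20.8 CPM in met-2 nrde-3.

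At the edges of the ratio, II 7911501 had 2.998 times the set-25 nrde-3 level in set-25 lin-61, and V 6123001 had 2.995 times. At the other end, V 12736501 was at 0.685 times, with 1.24, 0.502 and 1.63 CPM in set-25 lin-61 and 2.31, 1.26 and 1.35 CPM in set-25 nrde-3. V 12740001 was at 0.779 times and V 19627001 at 0.787 times. The libraries of both doubles overlapped in all 3 of these windows.

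The 5 windows high in lin-61 lay in 2 places on chromosome V, at V 8828001 and V 8829501 and at V 8870001, V 8871001 and V 8871501. V 8871501 held 11.3, 10.9 and 11.2 CPM in lin-61. It was low in N2, at 0.163, 0.158 and 0.237 CPM, and in nrde-3, at 0.0410, 0.0811 and 0.0411 CPM. The nrde-3 doubles were at 1.21, 2.05 and 1.81 CPM with met-2 and at 1.49, 1.30 and 1.21 CPM with set-25. The lin-61 doubles were at 1.03, 1.13 and 1.71 CPM in the libraries labelled with met-2 and at 2.26, 3.18 and 3.09 CPM with set-25. The lin-61 libraries stood close together and above all others. The level was 3.49 ± 0.26 lower on the log2 scale in the libraries labelled met-2 lin-61 than in lin-61 (edgeR, adjusted p = 3.10e-09) and 3.12 ± 0.25 lower in met-2 nrde-3 (adjusted p = 1.06e-08). Since the window was picked for its high level in lin-61, these p-values add no support. Both contrasts cross the title prefix.

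V 8829501 was also the highest in lin-61, with 10.04, 7.77 and 9.05 CPM in lin-61 and 0.798 to 1.51 CPM in the libraries labelled met-2 lin-61. V 8828001 held 9.35, 7.36 and 7.71 CPM in lin-61 and 0.371 to 1.12 CPM in those libraries. The windows beside them were also high in lin-61. V 8828501, V 8829001 and V 8870501, which were not selected, held 7.07, 8.37 and 6.71 CPM in lin-61. To the right, lin-61 held 4.55 CPM at V 8830001 and 0.871 CPM at V 8831501, and to the left 0.0259 CPM at V 8827501.

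The 25 windows high in met-2 nrde-3 formed 13 runs, and their level depended on the library. III 1300001 held 104, 226 and 78.4 CPM in met-2 nrde-3 and 0.330, 49.2 and 36.7 CPM in the libraries labelled met-2 lin-61. It held 13.3, 0.293 and 0.163 CPM in set-25 lin-61 and 9.01, 0.115 and 1.53 CPM in set-25 nrde-3. In lin-61 it held 2 reads over all 3 libraries, against 11007 in met-2 nrde-3. That ratio of levels was 13544, with an exact 95% interval of 3749 to 111855, and met-2 nrde-3 was above lin-61 in the fit (edgeR, adjusted p = 3.58e-05), whose fold depends on the prior count. Since III 1300001 was picked for its high level in met-2 nrde-3, this p-value adds no support. III 3335501 held 71.8, 203 and 18.5 CPM in met-2 nrde-3, and its libraries of set-25 lin-61 held 24.7, 0.0837 and 0.651 CPM. III 3334001 held 0 reads in lin-61 and 1655 in met-2 nrde-3, at least 1358-fold higher against a limit of 3 reads over the group.

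V 16709001 rested most on 1 library, with 10.8, 233 and 12.6 CPM in met-2 nrde-3. It held 3 reads in lin-61 and 1 read in N2, and 8.59, 0.0837 and 0.488 CPM in set-25 lin-61. II 5145001 was more even in met-2 nrde-3, at 37.4, 77.7 and 38.3 CPM, but held 0 reads in library a of those labelled met-2 lin-61, against 17.9 and 13.7 CPM in b and c. Its level in set-25 nrde-3 was 3.14, 0.268 and 0.808 CPM. Windows of this kind thus passed 1 CPM in set-25 lin-61 through library a alone, since b reached at most 0.460 CPM and c at most 0.651 CPM. In set-25 nrde-3 they passed it through 1 or 2 libraries.

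The same libraries were high in all 25 of these windows. Library a of set-25 lin-61 had a median of 6.403 CPM over them, against 0.126 CPM in b and 0.163 CPM in c, and was the highest of its genotype in 25 of 25. In set-25 nrde-3 the medians were 3.84 CPM in a, 0.153 CPM in b and 1.17 CPM in c. The libraries labelled met-2 lin-61 had 0.0412 CPM in a, 15.5 CPM in b and 12.3 CPM in c. In met-2 nrde-3 the medians were 37.4, 90.9 and 16.8 CPM, and library b was the highest in 25 of 25. Without library a of set-25 lin-61, 0 of the 25 windows met the selection, and 7 did without library a of set-25 nrde-3.

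**Figure D3:**
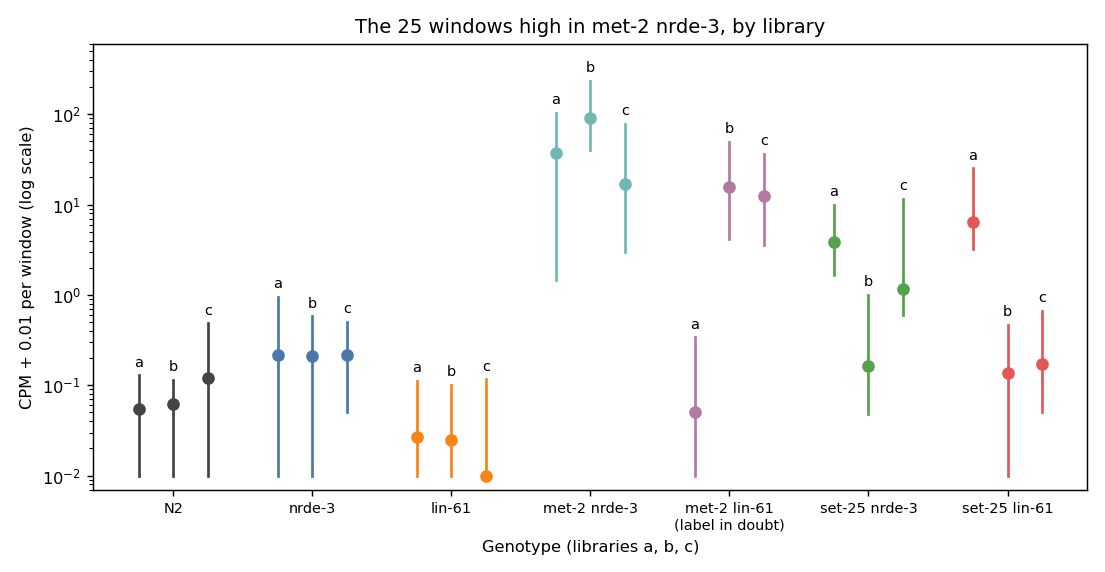
Level of the 25 windows high in met-2 nrde-3 in each of the 21 libraries (CPM + 0.01, log scale). Points are medians over the windows and lines run from the lowest to the highest window. Within set-25 lin-61 only library a (median 6.403 CPM) stands above the level of N2 and nrde-3, and within the libraries labelled met-2 lin-61 only b and c do.

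These 25 windows weighed heavily on sums over the selected windows. They held 63.5%, 90.7% and 49.3% of the summed CPM of all 638 windows in libraries a, b and c of met-2 nrde-3. In lin-61 they held 0.0637% to 0.155%. Sums over the selected windows are therefore not used here, and medians are.

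For the contrasts that the selection did not use, all 638 windows stood among the 97353 windows tested. The floor of 1 CPM in both set-25 doubles fixed their pass of the filter on low counts. With only the libraries compared in the fit, 613, 634 and 631 of them passed in the 3 contrasts given next. The libraries labelled met-2 lin-61 were higher than lin-61 in 48 selected windows and lower in 11 (edgeR quasi-likelihood test, adjusted p below 0.05), where 5.86% of all tested windows were higher and 9.47% lower. The 48 made up 7.52% of the selected windows. They were 23 graded windows and the 25 high in met-2 nrde-3, which held 0 to 16 reads over the 3 lin-61 libraries, so the count supports nothing about the selected windows as a group. The share of all tested windows called higher moved with the libraries used. When 1 library was left out, 2362 to 4532 windows were called higher, against 5702 with all libraries, and without library c of lin-61 2.10% of all tested windows and 5.80% of the selected ones were higher. With only the libraries compared, 10910 windows were higher, or 12.6%, against 9.62% of the selected ones. The 11 lower windows were the 5 high in lin-61 and 6 graded ones. The median log2 fold change over the selected windows was 0.11, against 0.03 over all tested windows. All 3 libraries of the one lay above all 3 of the other in 176 selected windows (27.6%), against 24% of all windows, and below in 13, against 5.77%. With TMM-normalised CPM these were 92 above and 43 below, against 13.5% and 11.997% of all windows. This contrast crosses the title prefix and carries the doubt on the label.

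Against lin-61, met-2 nrde-3 was higher in 38 selected windows and lower in 70, where 16.3% of all tested windows were higher and 15.1% lower. These counts are 5.96% and 10.97% of the selected windows. The 38 were again the 25 windows high in met-2 nrde-3 with 13 graded ones, and the 70 were 65 graded windows and the 5 high in lin-61. The median log2 fold change was -0.32, against 0.08 over all tested windows. Without overlap of libraries, met-2 nrde-3 was above lin-61 in 67 selected windows (10.5%), against 47.9% of all windows, and below in 35 (5.49%), against 4.67%. With TMM-normalised CPM it was above in 51 (7.99%), against 37.6%, and below in 123 (19.3%), against 10.6%. All windows include the 121674 silent ones, with medians of 0.248 CPM in met-2 nrde-3 and 0.0219 CPM in lin-61. The gap between these shares is therefore not read as a trait of the selected windows. Without library b of lin-61, the lower count was 117. After the level of the quiet windows was taken off each library, it was 113, and the median log2 fold change over the selected windows was -0.61. This contrast also crosses the prefix.

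Within prefix 1121, met-2 nrde-3 was higher than the libraries labelled met-2 lin-61 in 0 selected windows and lower in 2, where 1.47% of all tested windows were higher and 0.804% lower (edgeR). These shares stood for 1432 and 783 windows and rested on single libraries. They were 5 and 1 without library a of met-2 lin-61, 693 and 272 without b, 526 and 583 without c, 6479 and 1500 without b of met-2 nrde-3, and 1737 and 2015 without c. With only the libraries compared, 0 windows were higher and 1 lower. DESeq2 called 0 higher and 7 lower, and 114 selected windows had an unadjusted p below 0.05 in edgeR. By the separation of libraries, met-2 nrde-3 was above in 14 selected windows (2.19%), against 20.6% of all windows, and below in 104 (16.3%), against 3.55%. With TMM-normalised CPM it was above in 13 and below in 139 (21.8%), against 23.3% and 5.03% of all windows. Over all silent windows, the medians were 0.248 CPM in met-2 nrde-3 and 0.0661 CPM in the libraries labelled met-2 lin-61. Here too, the gap between the shares is not read as a trait of the selected windows. The median log2 fold change was -0.45, against 0.06 over all tested windows. The lower windows by the test were II 8446001 and X 5143001. X 5143001 held 0.161, 0.0347 and 0.700 CPM in met-2 nrde-3 and 1.48, 1.76 and 0.907 CPM in the libraries labelled met-2 lin-61, a log2 fold change of -2.31 ± 0.57 (edgeR, adjusted p = 0.0363). The call was lost without library a of met-2 nrde-3 (adjusted p = 0.0852) and without library a or b of met-2 lin-61 (0.119 and 0.0674). The count of lower windows was 0 without library a of either genotype, 1 without b of met-2 lin-61 and 4 without b or c of met-2 nrde-3. The count of higher windows was 1 without library a of met-2 nrde-3 and 2 without c.

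Along the chromosomes, most selected windows stood alone. Windows at most 1 window apart were joined, which gave 485 runs, of which 387 held 1 selected window, 63 held 2, 21 held 3, 10 held 4, 2 held 5 and 2 held 6. The longest were II 111501 to 114500 and III 3334001 to 3337000, with 6 windows each, and III 1299501 to 1302500 and III 12233001 to 12236000, with 5 each. The runs at III 3334001 and III 1299501 belonged to the pattern high in met-2 nrde-3, and the runs at II 111501 and III 12233001 to the graded one.

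The run on II held 8.56, 2.96 and 18.2 CPM per window in set-25 lin-61 and 5.19, 2.80 and 2.94 CPM in set-25 nrde-3. Its lin-61 libraries were at 0.709, 0.163 and 0.656 CPM. It ended at a transcribed window, II 114501, with 6.41 CPM in N2 and 9.02 to 12.01 CPM in the 6 mutants. The run at III 3334001 rose over 1 window. In met-2 nrde-3, III 3333501 was at 0.194 CPM, III 3334001 at 20.1 CPM, III 3334501 at 92.1 CPM, III 3336501 at 94.1 CPM and III 3337001 at 1.07 CPM. The run at III 1299501 went from 0.205 CPM at III 1299001 to 100.1 CPM at III 1299501 and back from 121 CPM at III 1302501 to 1.79 CPM at III 1303001.

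Transcription was often present in the windows next to the selected ones, at lower levels. The median of the nearest window to the left was 0.867 CPM in set-25 lin-61, 0.512 CPM in set-25 nrde-3, 0.219 CPM in lin-61 and 0.0434 CPM in N2, with 485 runs. A window at or above 1 CPM in set-25 lin-61 and silent in N2 and nrde-3 lay directly beside 347 of 638 selected windows (54.4%), against 3.88% of the other silent windows. Such neighbours were judged by values that the selection also used, and they could be selected windows themselves. Neighbouring windows also share transcripts, so nothing is read from that share. The selected windows lay beside a window of at least 1 CPM in N2 in 23 cases (3.61%), against 8.999% of the other silent windows. They lay beside a window that was not silent in 218 cases (34.2%), against 21.04% of the other silent windows.

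**Figure D4:**
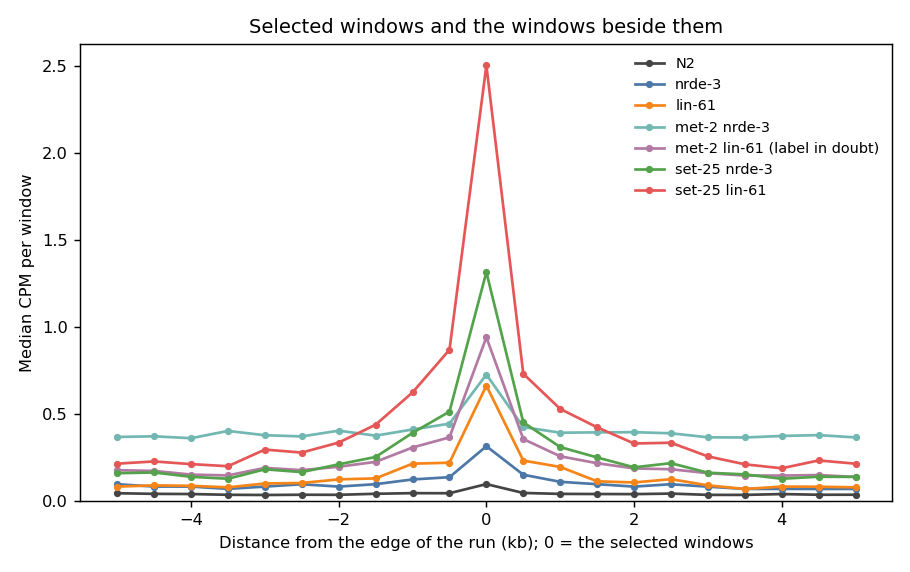
Median level of the selected windows (at 0) and of the windows up to 5 kb from the edge of each of 485 runs, in CPM per window, for the 7 genotypes. Levels in set-25 lin-61 and set-25 nrde-3 are 2.50 and 1.31 CPM at the selected windows and 0.867 and 0.512 CPM in the nearest window on the left, while met-2 nrde-3 stays above the other genotypes at the outer distances.

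The selected windows lay more often in the middle of 3 equal parts of a chromosome. This held for 303 of 638 (47.5%), against 31.7% of the other silent windows. On IV, 71 of 106 selected windows were in the middle part, which is 10.3 per 1000 silent windows there against 2.22 in the left and 2.30 in the right part. On V the figures were 8.505 in the middle, 5.63 on the left and 2.20 on the right. Chromosome III showed no such order, at 5.26 in the middle, 5.78 on the left and 5.39 on the right. By chromosome, 62 selected windows lay on I, 96 on II, 73 on III, 106 on IV, 161 on V and 140 on X. Neighbouring windows share transcripts, so windows are not independent and no test was made.

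**Figure D5:**
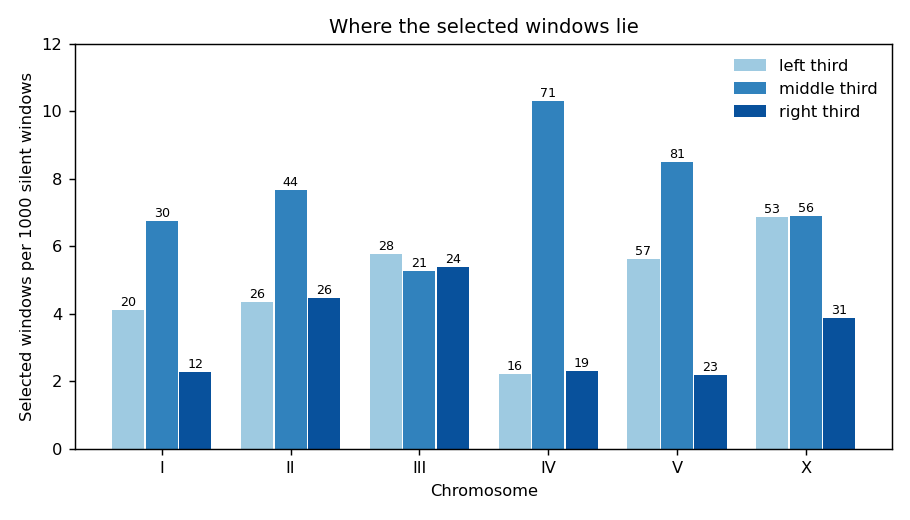
Selected windows per 1000 silent windows in the left, middle and right of 3 equal parts of each chromosome, with the number of selected windows above each bar. The middle part is the highest on I, II, IV, V and X, by least on X (6.91 against 6.87 on the left), and not on III.

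The thresholds cut through a continuous range. Windows that failed by the condition on set-25 nrde-3 alone numbered 1449, those that failed by N2 alone 318, by nrde-3 alone 339, by the ratio alone 264 and by set-25 lin-61 alone 25. X 16633001 was just inside at 1.0001 CPM in set-25 nrde-3, and IV 12776001 just outside at 0.999 CPM. III 3334501 was inside at 0.492 CPM in nrde-3, and IV 2812501 outside at 0.502 CPM. V 12924001 was inside at 1.02 CPM in set-25 lin-61, and III 4029501 outside at 0.989 CPM. For the ratio, V 5675501 was outside at 3.01. Of 927 silent windows at or above 1 CPM in set-25 nrde-3, 902 were so in set-25 lin-61 as well (97.3%). These were 25.4% of the 3553 at or above 1 CPM in set-25 lin-61. Among all silent windows, 2.92% reached 1 CPM in set-25 lin-61 and 0.762% in set-25 nrde-3. The selection used these values, so nothing is read from the shares.

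Among 67171 other windows with at least 1 CPM in some genotype, those whose 7 genotype means followed the median profile of the selected windows most closely were X 1495001, X 10335001, II 12349001, IV 4680501 and X 6128001. Their Pearson correlations over 7 genotypes were 0.998 to 0.999, on log2(CPM + 0.1), as a description. In CPM, IV 4680501 was at 0.869 in N2, 2.73 in nrde-3, 5.37 in lin-61, 5.56 in met-2 nrde-3, 8.08 in the libraries labelled met-2 lin-61 and 10.7 in set-25 nrde-3. It was left out by its levels in N2 and nrde-3.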

How the data were processed

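The deposited file holds raw read counts per 500 bp window for 21 libraries, made by the authors on genome build ce10 per the submitters' processing notes. The aligner, the counter and the treatment of reads with several matches are not given in the sources used here, so windows with near-identical copies are uncertain. A further 6 columns of counts belong to no sample in the labels and were not used. CPM is the count over the column sum. Nothing links the column letters to the numbered replicates in the titles.

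Windows were tested with edgeR 4.0.16 in R 4.3.3 (TMM, filterByExpr with a minimum count of 10, glmQLFit and glmQLFTest, all 21 libraries, 1 coefficient per genotype), with Benjamini-Hochberg adjustment over 97353 windows, and checked on simulated data. The simulated data held no spread shared by a whole library, so that check does not cover the library differences seen here. DESeq2 1.42.0 was an alternative. The p-values measure the spread between libraries.

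The windows, lists and tests were chosen with earlier results of these data known. Named windows are, with 1 per run, the 10 highest in both set-25 doubles, the 3 highest and lowest ratios of the doubles, the 3 highest in lin-61 and in each met-2 double, the 3 highest and lowest fold changes among calls, the longest runs, and windows at the thresholds. Others were chosen after their values were seen. Alternatives were RLE size factors, no filter, only the libraries compared, quiet-window background taken off, DESeq2, and each library left out. TMM-normalised CPM for levels was added after seeing the data.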

Additional observations from a re-analysis of the deposited data

Results flagged for a closer look

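At the 5 windows high in lin-61, the libraries labelled as double mutants lay in opposite directions on the lin-61 and the nrde-3 side. Every library of set-25 lin-61 and of those labelled met-2 lin-61 was below every library of lin-61. Every library of both nrde-3 doubles was above every library of nrde-3. The label check goes against the label met-2 lin-61, so with met-2 the lin-61 side is given by label only. These differences between the sides were not tested. With set-25, the directions of the means were fixed in advance. The selection held nrde-3 below 0.5 CPM and set-25 nrde-3 at 1 CPM or more. It held set-25 lin-61 below 3 times set-25 nrde-3, which was at most 1.33 CPM here. These windows were picked for 5 CPM or more in lin-61. Nothing is read from the directions with set-25. That pick and the ceiling on nrde-3 also favour the directions seen with met-2. In addition, lin-61 shares its title prefix with N2 only.

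At V 8871501, the level in the libraries labelled met-2 lin-61 was 0.116 times that in lin-61, and met-2 nrde-3 was 31.1 times nrde-3. With set-25 the ratios were 0.255 and 24.5. At V 8829501 they were 0.126 and 19.8 with met-2, and 0.240 and 15.8 with set-25. At V 8828001 they were 0.101 and 90.4 with met-2, and 0.182 and 84.2 with set-25, on 1 read in the nrde-3 libraries, with exact 95% counting intervals of 15.8 to 3609 and 14.5 to 3316 on the nrde-3 side. At V 8870001 they were 0.106 and 23.5 with met-2, and 0.178 and 16 with set-25. At V 8871001, which is outside the rule for named windows, they were 0.127 and 22.1 with met-2, and 0.293 and 20.1 with set-25. It held 5.57 to 6.02 CPM in lin-61, 0.453 to 0.922 CPM in the libraries labelled met-2 lin-61, 1.34 to 2.30 CPM in set-25 lin-61 and 0 to 0.0822 CPM in nrde-3. The nrde-3 libraries held 1 to 5 reads in these windows, so the ratios on that side are loose.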

How the results depend on the processing

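No paired analysis was possible because nothing links the column letters to the numbered replicates in the titles. The number of selected windows was 494 with TMM scaling and 627 with the median of the libraries, each sharing 427 with the 638, 648 after background was taken off, and 171 when every library of both set-25 doubles had to reach 1 CPM. Leaving out 1 library gave 340 to 859.

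For the libraries labelled met-2 lin-61 against lin-61, leaving out 1 library gave 32 to 42 selected windows higher and 8 to 10 lower, against 48 and 11. The lower count was 17 with no filter and 34 with only the libraries compared. For met-2 nrde-3 against lin-61, it gave 29 to 37 higher and 47 to 117 lower, against 38 and 70. The lower count was 238 with no filter and 113 after background was taken off. For met-2 nrde-3 against the libraries labelled met-2 lin-61, it gave 0 to 2 higher and 0 to 4 lower, against 0 and 2. There the counts were 20 higher and 78 lower with no filter, and the lower count was 0 with only the libraries compared, 16 after background was taken off and 7 with DESeq2. The cause of these shifts was not tested.

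With TMM-normalised CPM, an alternative chosen after seeing the data, the median level of the selected windows moved by less than the SD of the library medians in each of the 7 genotypes. That SD was wide, at 1.72 CPM in set-25 lin-61, so a smaller move does not show stability. The order of lin-61 and met-2 nrde-3 turned with this scaling. The 14 fold changes of named windows kept their direction in all 151 alternatives run, and 144 kept their side of the threshold. The 7 others belong to II 8446001 and X 5143001 in the last contrast. These 14 were picked as the highest and lowest among calls in the same data, so the kept direction adds no support. The 151 leave out cases with no result. With only the libraries compared, III 3335501 and II 5145001 had none for the libraries labelled met-2 lin-61 against lin-61. With DESeq2, V 16709001 had none for met-2 nrde-3 against lin-61. In silent windows, a level near 0.1 CPM rests on few reads per library, which limits every ratio against N2 or nrde-3.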
